A study of Mus musculus with 9 samples.

Results

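The USP genes encode the largest family of deubiquitinases, and their members were taken here as every gene whose symbol starts with Usp and a digit, leaving out Usp18. This rule found 51 of the 16509 genes in the table, of which 46 passed the filter on low counts and were tested, and Usp17lc, Usp17ld, Usp17le, Usp43 and Usp50 did not. RNA was sequenced from MC38, a mouse colorectal cancer cell line, in 9 libraries of 3 groups with 3 replicates each. The CTL group carries the treatment label DMSO, the Cu-Cys group received a copolymer of copper and cystine, and the Cadict group received the same kind of particle that also carries glucose oxidase and a lipid-PEG conjugate of the EGFR-binding peptide GE11. All 3 groups were of this single line, and dose and time were not given for these libraries in the sources used here. The study describes its cell experiments as independently repeated and its replicates as biological, but the labels do not tie each library to a separate culture, so p-values measure only the spread between these libraries. The rule takes in Usp6nl, which encodes a GTPase-activating protein and no deubiquitinase, and it was kept because its symbol matches.

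Ubiquitin is joined to proteins singly or in chains by E1, E2 and E3 enzymes, and deubiquitinases cut it off again, which spares substrates from the proteasome, edits chains or recycles free ubiquitin. USP enzymes are cysteine proteases that share a catalytic fold and differ in the domains around it, and many act with a partner protein that sets their activity or place in the cell. Members are known from work on p53 and MDM2, on histone ubiquitin, on receptor sorting at endosomes, on TGF-beta signalling and on the proteasome itself.

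Each library held 17905771 to 18293056 expected counts, and a gene with a count of 0 could still have been present at up to 3 counts, or 0.164 to 0.168 CPM before scaling (CPM are counts relative to the library's sum; counting error only). Of all counts, the 100 leading genes took 17.2% to 17.4% in CTL, 17.9% to 18.2% in Cu-Cys and 29.8% to 31.1% in Cadict, and the USP genes together took 0.410% to 0.418%, 0.395% to 0.398% and 0.232% to 0.274%. Values below are therefore given as TMM CPM, that is CPM after scaling by the trimmed mean of M-values, in the order of replicates 1, 2 and 3, and the dependence of directions on this scaling is stated with them. Cadict replicate 2 stood apart from its group, with a chi-square per degree of freedom of 13.8 and 21.8 against the other Cadict libraries and the lowest USP share. Of 7 epithelial markers 6 were in the table, and their summed level was 5.33 to 6.83 TMM CPM in CTL, 3.97 to 4.38 in Cu-Cys and 24.0 to 26.1 in Cadict, where Krt19 and Cdh1 passed the test at log2 fold changes of 3.34 and 1.39. The 3 fibroblast markers summed to 407.5 to 448.5 TMM CPM in CTL, 171.6 to 182.1 in Cu-Cys and 35.2 to 43.9 in Cadict. The 3 leukocyte markers measured of 5 stayed between 0.0866 and 0.262 TMM CPM, and the 2 endothelial markers between 0.732 and 2.44. In CTL the defining epithelial markers Epcam, Krt8 and Krt18 of this colorectal line were at or near 0, and the part of the marker shifts in the USP results was not tested. In bulk RNA, less RNA per cell and fewer cells cannot be told apart.

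Levels between genes were compared per length, as deposited TPM. Usp1, which acts on FANCD2 and PCNA in DNA repair, had the highest CTL level of the family at 176 ± 5.02 (SD, n = 3) TPM. Usp7, the deubiquitinase of MDM2 and p53, followed at 149 ± 5.46 (SD, n = 3), and the proteasome-bound Usp14 at 144 ± 4.80 (SD, n = 3), and the ranges of these last 2 overlapped. Usp5 at 97.0 ± 3.25 (SD, n = 3) and Usp15 at 96.6 ± 3.34 (SD, n = 3) overlapped as well, and Usp39 came next at 86.9 ± 1.996 (SD, n = 3). In all, 3 members lay at 100 TPM or more in CTL, 30 between 10 and 100, 10 between 1 and 10, and 8 under 1. The summed TPM of the members was 1667 to 1732 in CTL, 1552 to 1580 in Cu-Cys and 682 to 898 in Cadict, a scale on which most members were lower with Cadict.

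**Figure D1:**
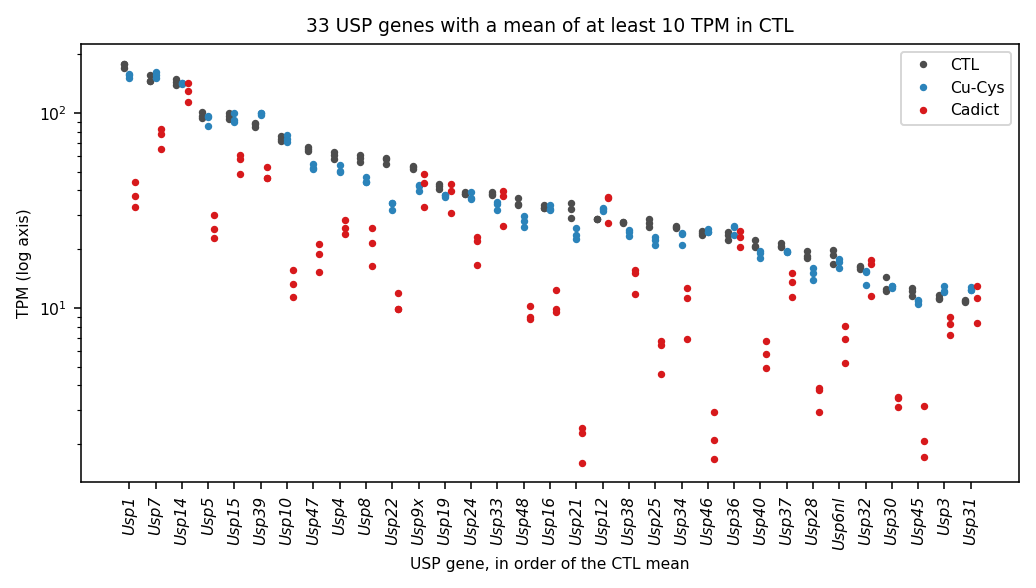
Deposited TPM (vertical log axis) of the 33 USP genes with a CTL mean of at least 10 TPM, in order of that mean, with 1 point per library for the 3 CTL, 3 Cu-Cys and 3 Cadict libraries. Usp1 leads at 170 to 179 TPM in CTL, and on this scale, which is not TMM-adjusted, most genes lie lower in Cadict.

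The first comparison asked which USP genes differed between Cadict-treated and CTL cells. The quasi-likelihood test of edgeR, with p adjusted over 11949 genes by the Benjamini-Hochberg method, called 9 of the 46 members higher and 12 lower with Cadict past a fold of 2 with an adjusted p no higher than 0.001, where 20.7% of all genes tested were higher and 27.1% lower. With the limit on adjusted p at 0.05 and none on the fold, 20 members were higher and 24 lower, beside 40.6% and 47.1% of all genes. The median log2 fold change of the members was -0.19 and that of all genes -0.13, so the family's counts and median lay near the background. Without any single library the members' median lay between -0.27 and -0.12, and without Cadict replicate 2 the counts were 10 higher and 12 lower, Usp9x being added at a log2 fold change of 1.04. Scaled by library totals instead, the median of all genes moved to -1.08, the calls at fold 2 were 2 members higher and 25 lower, and genes called higher made up 11.9% of all calls in place of 43.3%. All rises called at 0.05 stayed positive with DESeq2 size factors, and 10 turned negative under library totals.

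**Figure D2:**
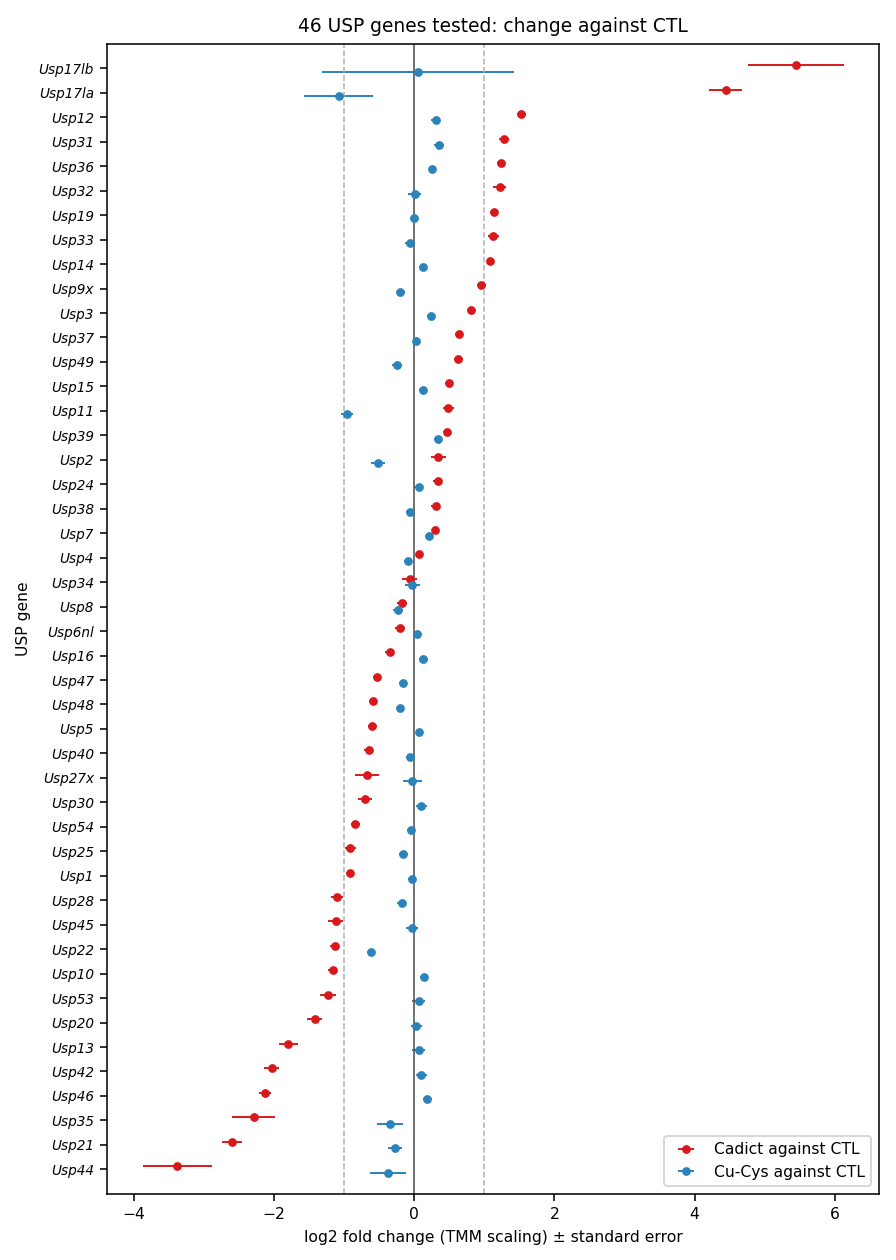
Log2 fold change against CTL with its standard error (horizontal axis, TMM scaling) of the 46 tested USP genes, ordered by the Cadict value, for Cadict (red) and Cu-Cys (blue); dashed lines mark a fold of 2. Cadict values run from -3.38 to 5.44 and all Cu-Cys values but that of Usp17la, at -1.08, lie within the dashed lines. Cadict rises of under 0.95 turn negative under library totals.

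The Usp17-like genes, the mouse DUB genes first described as cytokine-induced in blood cells, had the largest rises. Usp17la had expected counts of 7, 12 and 6 in CTL, 2, 4 and 5 in Cu-Cys and 86, 85 and 110 in Cadict. All 3 Cadict libraries lay above all others, and the log2 fold change was 4.44 ± 0.23 (standard error, SE). With Cu-Cys the log2 fold change of Usp17la was -1.08 ± 0.49 (SE), on 12 or fewer counts in each CTL and Cu-Cys library, and it was not called. Usp17lb had 1, 0 and 0 counts in CTL, 0, 1 and 0 in Cu-Cys and 10, 11 and 11 in Cadict. Its 32 counts in Cadict against 1 in CTL gave a ratio of 63.0 after TMM scaling, with an exact 95% counting interval of 10.5 to 2563. The interval is that of the summed counts and holds no spread between libraries. Both genes passed the filter on low counts only through the Cadict libraries, the group where they are high, so their rises are given as a description and no p-value is printed for them; they are 2 of the 9 members counted as higher at fold 2. The rises of both genes were kept under library totals, at log2 fold changes of 3.49 and 4.58. Usp17lc, Usp17ld and Usp17le had at most 4.48 expected counts in any library. These genes are close copies: of the 50-base stretches of their transcripts, 19.6% in Usp17la, 21.8% in Usp17lb and 30.8% to 51.1% in the other 3 occur in another gene, so how the counts were split between copies is uncertain. The sum over the 5 genes, which splitting among them leaves alone, was 8, 13 and 7 counts in CTL, 2, 5 and 7 in Cu-Cys and 100, 99 and 127 in Cadict. Gm5053, outside these 5, shares 104 such stretches with Usp17la and 172 with Usp17lb. The sum does not remove splitting with Gm5053.

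The windows of 250 bases before to 50 after the start of Usp17la and Usp17lb are shown because these members rose most and because their starts differ from those of the family. They are RefSeq sequences of build GRCm38.p6, from chr7:104856766-104857065 (plus strand) and chr7:104842534-104842833 (minus strand), printed 5' to 3' on the gene's strand, with matches to the core of the metal response element TGCACNC, searched on both strands, in capitals.
Usp17la: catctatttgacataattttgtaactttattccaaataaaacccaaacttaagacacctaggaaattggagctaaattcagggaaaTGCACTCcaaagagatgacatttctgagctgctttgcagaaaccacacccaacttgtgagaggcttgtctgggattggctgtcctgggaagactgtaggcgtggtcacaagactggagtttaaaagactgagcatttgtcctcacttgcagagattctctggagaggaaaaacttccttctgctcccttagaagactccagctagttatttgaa
Usp17lb: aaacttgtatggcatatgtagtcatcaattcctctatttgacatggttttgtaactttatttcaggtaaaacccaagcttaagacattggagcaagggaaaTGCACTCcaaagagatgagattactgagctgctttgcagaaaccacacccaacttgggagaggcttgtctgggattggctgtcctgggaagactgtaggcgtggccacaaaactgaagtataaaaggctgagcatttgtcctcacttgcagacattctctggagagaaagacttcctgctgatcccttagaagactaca
Each window held 1 match, starting at base 87 in Usp17la and base 102 in Usp17lb. The motif was in 5 of 39 member windows, Usp17la, Usp17lb, Usp17lc, Usp17ld and Usp19, or 12.8% of them, and in 12.4% of the 27025 mouse windows of this length. A match is a description of letters and not a site. The windows of Usp17la and Usp17lb had 42.0% and 43.7% G and C bases and 1 CpG each, against medians of 65.0% and 28 over the 39 member windows and 52.7% and 7 over all.

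**Figure D3:**
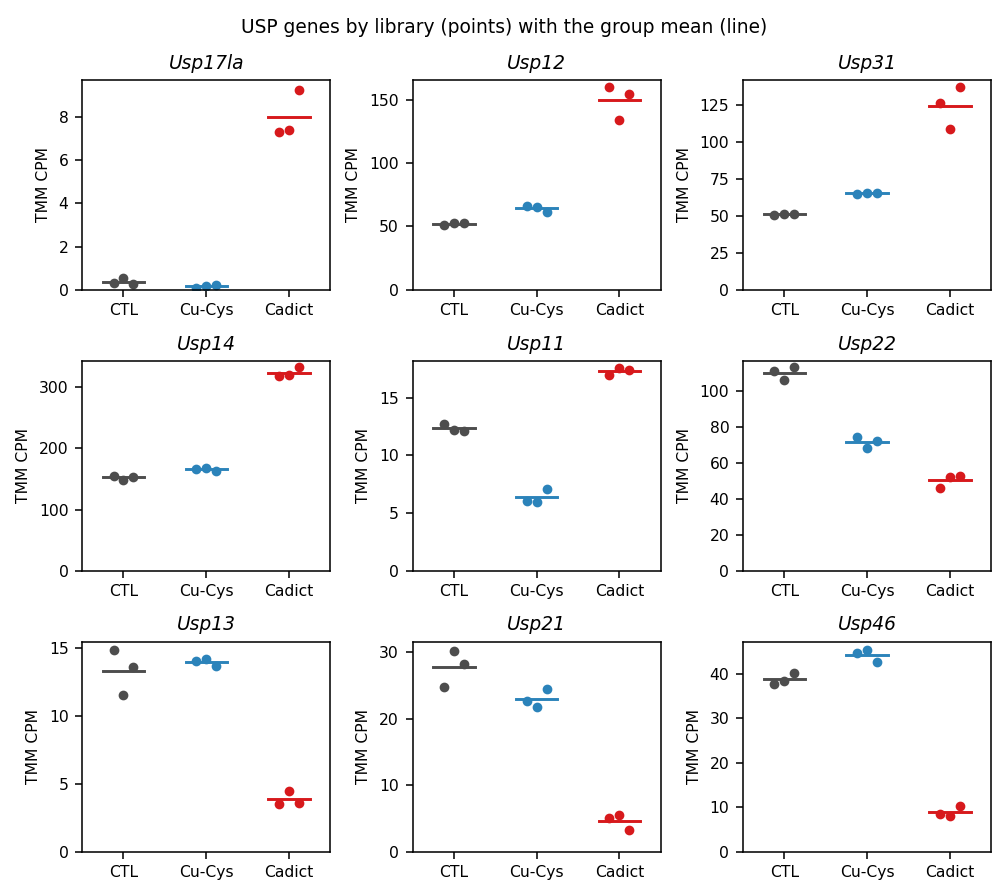
TMM CPM (vertical axis from 0) of 9 USP genes in each library (points, 3 per group) with the group mean (line). Usp17la, Usp12, Usp31 and Usp14 are highest in Cadict, Usp22, Usp13, Usp21 and Usp46 lowest, and Usp11 is low in Cu-Cys; under library totals the Cadict rise of Usp11 becomes a fall, and on log2(TPM + 1) those of Usp31 and Usp14 do.

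Usp12 and Usp46 are close relatives that both depend on the WD-repeat proteins WDR48 and WDR20, and they moved apart with Cadict. In CTL, Usp12 had 51.0, 52.5 and 52.5 TMM CPM, against 65.8, 65.7 and 61.6 in Cu-Cys and 160.1, 134 and 155 in Cadict. Every Cadict library was above every Cu-Cys library, and these were above CTL. With Cadict, Usp12 had a log2 fold change of 1.52 ± 0.06 (SE) and an adjusted p of 3.3e-12 by the edgeR test named above, as for every adjusted p of Cadict against CTL that follows. Under library totals the value was 0.57. The TMM CPM of Usp46 were 37.8, 38.4 and 40.2 in CTL, 44.7, 45.3 and 42.6 in Cu-Cys, and 8.41, 7.93 and 10.2 in Cadict. Here the Cadict libraries were the lowest and the Cu-Cys libraries slightly the highest. Against CTL, Cadict gave Usp46 -2.13 ± 0.09 (SE) on the log2 scale, adjusted p = 1.8e-12. Within a library, the count ratio of Usp12 to Usp46, on which scaling has no bearing, was 1.35, 1.36 and 1.31 in CTL, 1.47, 1.45 and 1.44 in Cu-Cys and 19.0, 16.9 and 15.1 in Cadict. Of the partners, Wdr48 fell by 0.69 on the log2 scale with Cadict and Wdr20 rose by 0.46, a rise smaller than the 0.95 by which library totals lower all values. The start windows of Usp12 (chr5:146794907-146795206) and Usp46 (chr5:74068362-74068661), both on the minus strand of GRCm38.p6 in RefSeq, are shown to set the oppositely moving relatives side by side, with matches to the GC box GGGCGG on either strand, overlapping ones included, in capitals.
Usp12: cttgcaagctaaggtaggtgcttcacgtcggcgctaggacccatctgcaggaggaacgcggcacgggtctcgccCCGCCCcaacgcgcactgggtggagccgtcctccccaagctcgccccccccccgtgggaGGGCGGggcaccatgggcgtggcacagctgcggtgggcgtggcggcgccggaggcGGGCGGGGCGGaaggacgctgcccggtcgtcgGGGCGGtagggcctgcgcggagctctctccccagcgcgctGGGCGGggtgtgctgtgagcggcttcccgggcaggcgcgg
Usp46: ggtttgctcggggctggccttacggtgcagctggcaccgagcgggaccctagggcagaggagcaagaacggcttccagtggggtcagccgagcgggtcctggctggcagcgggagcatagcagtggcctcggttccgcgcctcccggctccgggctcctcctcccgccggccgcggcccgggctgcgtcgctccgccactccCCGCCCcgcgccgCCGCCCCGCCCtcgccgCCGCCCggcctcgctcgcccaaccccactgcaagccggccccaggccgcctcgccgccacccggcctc
They held 6 and 4 matches, with 75.7% and 78.0% G and C bases and 37 and 38 CpG. The GC box was in 26 of the 39 member windows (66.7%) and in 35.9% of all windows, and in 5 of 7 windows of members higher and 7 of 8 of members lower with Cadict at fold 2.

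Of the members that work on the proteasome and on free ubiquitin chains, Usp14 rose on the TMM scale, though not on log2(TPM + 1), and Usp5 and Usp13 fell. Usp14 trims chains on substrates bound to the proteasome. For Usp14 the libraries gave 155, 148 and 154 TMM CPM in CTL, 166, 167 and 163 in Cu-Cys and 318, 319 and 333 in Cadict. Its Cadict libraries were about the same as each other and above all the rest. Usp14 had a Cadict log2 fold change of 1.09 ± 0.05 (SE, adjusted p = 3.3e-12). It was 0.13 under library totals and -0.17 on log2(TPM + 1). Of its exon bases 26.0% lie opposite Thoc1 exons, and strand use in the counting was not stated, so reads of the 2 genes cannot be told apart there. Usp5 takes apart unanchored chains. Levels of Usp5 were 130.2, 128 and 126 TMM CPM in CTL, 142, 126 and 136 in Cu-Cys and 81.0, 83.1 and 90.6 in Cadict. The Cadict libraries were the lowest, and those of CTL and Cu-Cys overlapped. This was a log2 fold change of -0.59 ± 0.06 (SE) for Usp5 in Cadict, at an adjusted p of 9.9e-08. Usp13 is its close relative. Usp13 was measured at 14.9, 11.5 and 13.6 TMM CPM in CTL, at 14.1, 14.2 and 13.7 in Cu-Cys and at 3.48, 4.44 and 3.61 in Cadict. Cadict was lowest here too. Cadict changed Usp13 by a log2 fold of -1.80 ± 0.13 (SE), with an adjusted p of 3.5e-09.

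Among the 8 histone-linked members measured, 4 were lower and none higher at fold 2, and 6 passed 0.05 as lower and 2 as higher; of all genes, 27.1% were lower and 20.7% higher at fold 2, and 47.1% and 40.6% at 0.05. Usp44 and Usp49 act on ubiquitin of histone H2B. Usp44 was expressed at a low level, at 1.56, 2.38 and 1.57 TMM CPM in CTL, 1.15, 1.51 and 1.60 in Cu-Cys and 0.170, 0 and 0.336 in Cadict. The Cadict libraries were at or near the floor and below all others. With Cadict, Usp44 had a log2 fold change of -3.38 ± 0.50 (SE). It had 2, 0 and 3.58 expected counts in Cadict and passed the filter on low counts through CTL and Cu-Cys, where it is higher. Its fall is therefore given as a description with no p-value, though it is among the members counted as lower. In CTL, Usp49 had 28.4, 26.8 and 27.2 TMM CPM, against 21.4, 23.7 and 24.4 in Cu-Cys and 43.9, 39.9 and 43.5 in Cadict. Cadict was highest and Cu-Cys lowest. Against CTL, Cadict gave Usp49 0.63 ± 0.07 (SE) on the log2 scale, adjusted p = 2.8e-07. This rise became -0.32 under library totals, and 51.8% of its 50-base stretches are shared with Gm20517, whose exons overlap it on the same strand. Usp21, which acts on histone H2A and on signalling proteins, showed the second largest fall. The TMM CPM of Usp21 were 24.7, 30.2 and 28.3 in CTL, 22.7, 21.8 and 24.4 in Cu-Cys, and 5.10, 5.49 and 3.19 in Cadict. All Cadict libraries were below the rest. Usp21 had a Cadict log2 fold change of -2.60 ± 0.14 (SE, adjusted p = 5.4e-11). Usp22 is the deubiquitinase of the SAGA coactivator, and Usp27x can take its place there. For Usp22 the libraries gave 111, 106 and 113 TMM CPM in CTL, 74.1, 68.2 and 72.1 in Cu-Cys and 46.0, 52.1 and 52.4 in Cadict. The 3 groups did not overlap, with Cu-Cys in between. This was a log2 fold change of -1.13 ± 0.06 (SE) for Usp22 in Cadict, at an adjusted p of 6.7e-11. Levels of Usp27x were 5.71, 4.33 and 4.58 TMM CPM in CTL, 4.43, 4.85 and 5.06 in Cu-Cys and 3.40, 2.44 and 3.27 in Cadict. Cadict was below the other groups, which overlapped. Cadict changed Usp27x by a log2 fold of -0.68 ± 0.17 (SE), with an adjusted p of 0.0016. Of the SAGA module partners, Atxn7 fell by 1.06 on the log2 scale, Atxn7l3 had 0.26 and Eny2 1.28. Usp42 removes ubiquitin from H2B and p53. Usp42 was measured at 17.6, 18.1 and 18.4 TMM CPM in CTL, at 19.1, 19.5 and 19.6 in Cu-Cys and at 4.16, 3.75 and 5.29 in Cadict. Cadict libraries were the lowest and the Cu-Cys ones the highest by a small margin. With Cadict, Usp42 had a log2 fold change of -2.03 ± 0.11 (SE) and an adjusted p of 4.5e-11. Usp16 is an H2A deubiquitinase of mitosis. In CTL, Usp16 had 38.6, 41.1 and 39.8 TMM CPM, against 43.0, 43.4 and 44.4 in Cu-Cys and 28.7, 31.1 and 33.9 in Cadict. Cadict was lowest and Cu-Cys highest, and the log2 fold change with Cadict was -0.35. Usp3, which acts on H2A at damaged DNA, had a log2 fold change of 0.81, and -0.14 under library totals.

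Of 9 members linked to p53, DNA repair and the cell cycle, 2 were lower and none higher at fold 2, beside 27.1% and 20.7% of all genes. Usp10, which acts on p53 and binds the stress granule protein G3BP, fell by 1.16 on the log2 scale, from 114 to 118 TMM CPM in CTL to 47.7 to 56.9 in Cadict. Usp28, a deubiquitinase of MYC, was the other. The TMM CPM of Usp28 were 33.0, 36.1 and 33.5 in CTL, 28.1, 32.5 and 29.9 in Cu-Cys, and 16.8, 14.8 and 16.1 in Cadict. The groups did not overlap between Cadict and the rest. Against CTL, Cadict gave Usp28 -1.10 ± 0.08 (SE) on the log2 scale, adjusted p = 2.5e-09. With DESeq2 size factors it was -0.98, just under a fold of 2. Its relative Usp25, known from immune signalling, showed a like size. For Usp25 the libraries gave 54.1, 50.7 and 53.5 TMM CPM in CTL, 45.3, 50.2 and 46.9 in Cu-Cys and 30.00, 24.1 and 29.8 in Cadict. Again Cadict was the lowest. Usp25 had a Cadict log2 fold change of -0.91 ± 0.08 (SE, adjusted p = 1.8e-08). Usp1 fell by 0.92 on the log2 scale, and 22.9% of its 50-base stretches recur in Gm5841. Levels of Usp7 were 301, 291 and 292 TMM CPM in CTL, 355, 331 and 335 in Cu-Cys and 368, 351 and 372 in Cadict. The Cadict and Cu-Cys libraries overlapped, and both lay above CTL. This was a log2 fold change of 0.30 ± 0.05 (SE) for Usp7 in Cadict, at an adjusted p of 2.4e-05. Usp47 was measured at 161, 158 and 163 TMM CPM in CTL, at 149, 143 and 138 in Cu-Cys and at 112, 103 and 119 in Cadict. Usp47, a relative of Usp7 that acts on DNA polymerase beta, was lowest in Cadict. Cadict changed Usp47 by a log2 fold of -0.53 ± 0.06 (SE), with an adjusted p of 3.4e-07. Usp48 fell by 0.59 on the log2 scale. Usp37 acts on cyclin A. In CTL, Usp37 had 67.9, 66.1 and 68.3 TMM CPM, against 69.2, 70.1 and 67.4 in Cu-Cys and 105, 100.1 and 111 in Cadict. Its Cadict libraries were above the rest, at a log2 fold change of 0.64. Under library totals Usp37 was -0.31 and Usp7 -0.65.

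The 3 members that act on TGF-beta receptors and SMAD proteins had log2 fold changes of 0.96 (Usp9x), 0.49 (Usp15) and 0.08 (Usp4), and Usp4 did not pass the test. The TMM CPM of Usp9x were 276, 289 and 296 in CTL, 240.5, 261 and 249 in Cu-Cys, and 574, 493 and 603 in Cadict. Cadict was the highest group and Cu-Cys the lowest. With Cadict, Usp9x had a log2 fold change of 0.96 ± 0.07 (SE) and an adjusted p of 1.4e-09. Under library totals Usp9x was 0.00. For Usp15 the libraries gave 118, 119.6 and 120.2 TMM CPM in CTL, 129, 133 and 127 in Cu-Cys and 175, 165 and 163 in Cadict. Cadict libraries were above the others. Against CTL, Cadict gave Usp15 0.49 ± 0.05 (SE) on the log2 scale, adjusted p = 8.5e-08. Levels of Usp4 were 96.7, 95.02 and 92.1 TMM CPM in CTL, 94.3, 86.9 and 85.0 in Cu-Cys and 96.1, 103 and 100.4 in Cadict. CTL overlapped with both other groups. Usp4 had a Cadict log2 fold change of 0.08 ± 0.05 (SE, adjusted p = 0.2). Usp15 was -0.46 under library totals.

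Among the 6 members at membranes and organelles, 3 were higher and 1 lower at fold 2, beside 20.7% and 27.1% of all genes. Usp19, anchored in the endoplasmic reticulum, had a log2 fold change of 1.14, and Usp32, a Golgi and endosome protein, 1.22; under library totals these were 0.19 and 0.27. Usp33 and Usp20 are close relatives first found as partners of the VHL protein. Usp33 was measured at 68.3, 68.2 and 67.8 TMM CPM in CTL, at 62.5, 67.1 and 66.8 in Cu-Cys and at 159.6, 128 and 160.3 in Cadict. Cadict lay above both other groups. This was a log2 fold change of 1.13 ± 0.07 (SE) for Usp33 in Cadict, at an adjusted p of 6.4e-10. Under library totals it was 0.18, and 24.4% of its exon bases lie opposite other genes. In CTL, Usp20 had 12.98, 14.4 and 12.2 TMM CPM, against 13.8, 12.99 and 13.6 in Cu-Cys and 4.59, 5.32 and 4.87 in Cadict. Cadict lay below both. Cadict changed Usp20 by a log2 fold of -1.42 ± 0.11 (SE), with an adjusted p of 5.0e-09. Usp30, of the mitochondrial outer membrane, fell by 0.70 on the log2 scale. Usp8, which frees receptors from sorting at endosomes, had a log2 fold change of -0.17 with an adjusted p of 0.041 by edgeR's test, and this passed 0.05 no longer without CTL replicate 1 (0.0617), CTL replicate 3 (0.142), Cu-Cys replicate 3 (0.0501), Cadict replicate 1 (0.0922) or Cadict replicate 2 (0.155).

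Usp36 is the nucleolar deubiquitinase, and its relative Usp42 is described above. The TMM CPM of Usp36 were 53.9, 52.8 and 51.3 in CTL, 65.8, 60.0 and 63.4 in Cu-Cys, and 122, 123 and 128 in Cadict. All Cadict libraries were above Cu-Cys, and these above CTL. With Cadict, Usp36 had a log2 fold change of 1.24 ± 0.05 (SE) and an adjusted p of 3.8e-12. Under library totals it was 0.28. Usp39, a splicing factor that lacks deubiquitinase activity, rose less. For Usp39 the libraries gave 77.1, 75.5 and 78.9 TMM CPM in CTL, 98.9, 98.6 and 94.3 in Cu-Cys and 99.6, 114 and 108 in Cadict. Both treated groups were above CTL, and the lowest Cadict library was just above the highest of Cu-Cys. Against CTL, Cadict gave Usp39 0.47 ± 0.06 (SE) on the log2 scale, adjusted p = 9.0e-07. Under library totals Usp39 was -0.48 with Cadict. Of the 4 members known from immune signalling, Usp31, described in work on NF-kappaB, rose most. Levels of Usp31 were 50.6, 51.3 and 51.4 TMM CPM in CTL, 64.9, 65.1 and 65.3 in Cu-Cys and 126, 108 and 137 in Cadict. The 3 groups were apart, in the order CTL, Cu-Cys, Cadict. Usp31 had a Cadict log2 fold change of 1.28 ± 0.07 (SE, adjusted p = 7.2e-11). Under library totals it was 0.33. Usp35 had low values. Usp35 was measured at 2.81, 2.73 and 2.44 TMM CPM in CTL, at 2.31, 2.38 and 1.60 in Cu-Cys and at 0.425, 0.349 and 0.840 in Cadict. The Cadict libraries were the lowest. This was a log2 fold change of -2.29 ± 0.31 (SE) for Usp35 in Cadict. With 5, 4 and 10 counts in Cadict, Usp35 passed the filter on low counts through CTL and Cu-Cys, where it is higher. No p-value is printed for it, as for Usp44. In CTL, Usp38 had 52.4, 54.5 and 54.2 TMM CPM, against 51.6, 51.2 and 51.9 in Cu-Cys and 71.0, 58.8 and 69.5 in Cadict. Usp38, a relative of Usp35, was slightly higher in Cadict than elsewhere. Cadict changed Usp38 by a log2 fold of 0.31 ± 0.07 (SE), with an adjusted p of 4.3e-04. Usp38 turned to -0.64 under library totals, and 20.5% of its exon bases lie opposite Gm9725.

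The remaining tested members were Usp45, Usp53, Usp54, Usp40, Usp24, Usp34 and Usp6nl. The TMM CPM of Usp45 were 32.5, 32.3 and 30.7 in CTL, 30.7, 31.6 and 31.3 in Cu-Cys, and 13.1, 12.3 and 18.5 in Cadict. Usp45, which acts on the repair nuclease subunit ERCC1, was lowest in Cadict. With Cadict, Usp45 had a log2 fold change of -1.12 ± 0.11 (SE) and an adjusted p of 6.0e-08. For Usp53 the libraries gave 15.7, 16.5 and 16.4 TMM CPM in CTL, 17.8, 18.1 and 14.9 in Cu-Cys and 7.14, 5.84 and 7.64 in Cadict. Usp53 was lowest in Cadict as well. Against CTL, Cadict gave Usp53 -1.23 ± 0.11 (SE) on the log2 scale, adjusted p = 4.3e-08. Levels of Usp54 were 27.2, 27.1 and 26.9 TMM CPM in CTL, 26.8, 26.0 and 26.0 in Cu-Cys and 15.0, 15.0 and 15.4 in Cadict. Usp54, a relative of Usp53, was lowest in Cadict and varied little between libraries of a group. Usp54 had a Cadict log2 fold change of -0.84 ± 0.07 (SE, adjusted p = 7.1e-09). Usp40 fell by 0.65 on the log2 scale and Usp6nl by 0.21, the last with an adjusted p of 0.0511 without CTL replicate 1 by edgeR's test. Usp24 had a log2 fold change of 0.34, and -0.62 under library totals. Usp34 had one of -0.07 and did not pass the test.

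The second comparison took Cu-Cys, the particle without glucose oxidase and GE11, against CTL. No member passed fold 2 with an adjusted p within 0.001 in the quasi-likelihood test of edgeR, where 0.167% of all genes were higher and 1.47% lower. DESeq2 and limma on TPM also called 0, and 11 members were higher and 12 lower at an unadjusted p under 0.05, beside 3170 and 3107 of the 11949 genes. Past 0.05 without a fold limit, 8 members were higher and 10 lower, beside 22.6% and 22.4% of all genes. Usp11, a deubiquitinase linked to BRCA2 and homologous recombination, had the largest change of those that passed. Usp11 was measured at 12.7, 12.3 and 12.1 TMM CPM in CTL, at 6.09, 5.94 and 7.07 in Cu-Cys and at 17.0, 17.6 and 17.4 in Cadict. The Cu-Cys libraries were the lowest and the Cadict libraries the highest. Cu-Cys gave Usp11 a log2 fold change of -0.96 ± 0.09 (SE), adjusted p = 1.0e-06 by edgeR's test. It passed the fold limit when Cu-Cys replicate 3 was left out, at -1.04. Usp22, with its values given above, was next. Cu-Cys gave Usp22 a log2 fold change of -0.62 ± 0.06 (SE), adjusted p = 1.2e-06 by edgeR's test. Usp2, which acts on MDM2 and cyclin D1, came after it. In CTL, Usp2 had 6.79, 7.23 and 7.72 TMM CPM, against 5.31, 5.17 and 4.70 in Cu-Cys and 9.26, 8.98 and 9.40 in Cadict. The order of the groups was that of Usp11. Cu-Cys gave Usp2 a log2 fold change of -0.52 ± 0.10 (SE), adjusted p = 6.8e-04 by edgeR's test. Among the rises, Usp31 had a log2 fold change of 0.35, Usp39 0.33 and Usp12 0.31, and the groups did not overlap in any of them. The adjusted p-values of Usp31, Usp39 and Usp12 were 9.6e-04, 2.0e-04 and 0.0014 by the same test. With log2 fold changes in parentheses, Usp36 (0.26), Usp3 (0.24), Usp7 (0.21), Usp46 (0.19) and Usp14 (0.12) were also higher, and Usp21 (-0.27), Usp49 (-0.25), Usp8 (-0.23), Usp9x (-0.20), Usp48 (-0.20), Usp28 (-0.18) and Usp47 (-0.16) lower. Several of these smaller calls changed with 1 library: leaving out 1 CTL or Cu-Cys library in turn raised the adjusted p above 0.05 in Usp14 each time, to between 0.0773 and 0.175, as did leaving out Cadict replicate 1 (0.0529), which enters through the shared spread. CTL replicate 1 did so for Usp28, Usp46 and Usp47 too. CTL replicate 2 did for Usp9x, Usp21, Usp28, Usp46 and Usp47, and CTL replicate 3 for Usp8, Usp9x, Usp21, Usp28 and Usp47. Cu-Cys replicate 1 did for Usp8, Usp9x, Usp21, Usp28 and Usp46, Cu-Cys replicate 2 for Usp8, Usp21, Usp46 and Usp47, and Cu-Cys replicate 3 for Usp9x, Usp28 and Usp47. The other values without these libraries reached at most an adjusted p of 0.187. Without Cadict replicate 2, Usp10, Usp15, Usp16 and Usp25 passed 0.05 as well, which gave 11 members higher and 11 lower. The log2 fold changes of Usp14 and Usp28, but no other member's call, passed 0.05 no longer with the replicate number as a block, at adjusted p-values of 0.0806 and 0.0564. Of the 18 calls, those of Usp28 and Usp47 were lost with DESeq2 size factors and those of Usp9x, Usp21, Usp28 and Usp47 by its Wald test. Those of Usp14 and Usp46 were lost under library totals, of Usp14 and Usp28 without a filter, and of Usp14 with at least 10 counts in every library. By limma on log2(TPM + 1) the rises of Usp3, Usp7, Usp12, Usp31, Usp36 and Usp46 did not pass 0.05, and that of Usp14 turned negative.

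In the direct comparison of Cadict with Cu-Cys, 8 members were higher and 10 lower at fold 2, beside 18.6% and 23.6% of all genes tested. These counts include Usp17la and Usp17lb as higher and Usp35 and Usp44 as lower. Each of those passed the filter on low counts through the groups where it is higher. Past 0.05 there were 20 and 23, beside 40.3% and 45.6%. The comparisons against CTL share the CTL libraries, so the values of a member are given side by side. Usp9x had 0.96 with Cadict and -0.20 with Cu-Cys, Usp11 0.49 and -0.96, Usp2 0.35 and -0.52, Usp49 0.63 and -0.25, and Usp46 -2.13 and 0.19, all called at 0.05 with opposite signs. By edgeR's test the direct differences were 1.16 ± 0.07 in Usp9x, 1.44 ± 0.09 in Usp11, 0.87 ± 0.11 in Usp2, 0.87 ± 0.07 in Usp49 and -2.32 ± 0.09 in Usp46, with adjusted p-values of at most 1.6e-06. Under library totals the Cadict rises of Usp2, Usp11 and Usp49 against CTL turned negative, and the direct differences of Usp2 and Usp49 became -0.02 and -0.01, while those of Usp9x, Usp11 and Usp46 kept their signs. By limma on log2(TPM + 1) the direct difference of Usp9x was -0.0057. Usp45 passed fold 2 no longer without Cadict replicate 2, at -0.99.

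Relatives within the family were compared by their count ratio within each library, which no scaling of libraries changes. Of 13 pairs with both genes tested and counted in every library, the mean log2 ratio moved by at least 1 with Cadict in 5 and with Cu-Cys in 1. How often pairs of other genes move as far was not counted. The log2 fold changes of all genes tested had quartiles of -1.17 and 0.82 with Cadict against CTL. Whether such shifts are particular to relatives was not tested. Among the 13 pairs, the largest shift was that of Usp12 to Usp46, given above, a 12.6-fold change of the ratio. Usp36 to Usp42 went from a log2 ratio of 1.54 ± 0.07 (SD, n = 3) in CTL to 1.70 ± 0.08 in Cu-Cys and 4.83 ± 0.22 in Cadict. Usp20 to Usp33 went from -2.37 ± 0.12 to -2.28 ± 0.09 and -4.92 ± 0.29, and Usp35 to Usp38 from -4.34 ± 0.13 to -4.64 ± 0.33 and -7.05 ± 0.59. In Usp5 to Usp13 the values were 3.27 ± 0.18, 3.27 ± 0.10 and 4.47 ± 0.22. In each of these pairs the Cadict libraries lay outside the range of CTL and Cu-Cys. The pair that moved with Cu-Cys was Usp11 to Usp15, at -3.27 ± 0.05 in CTL, -4.35 ± 0.17 in Cu-Cys and -3.27 ± 0.08 in Cadict. Usp25 to Usp28, at 0.63 ± 0.12, 0.65 ± 0.03 and 0.81 ± 0.09, overlapped between each treated group and CTL. Usp9y, Usp26, Usp29 and Usp51 were not among the 51 genes that the rule found in the table. Usp43, the relative of Usp31, had counts in 1 library only. Usp44 to Usp49 was left out of the ratios because Usp44 had a count of 0 in Cadict replicate 2. In the edgeR fit the Cadict log2 fold changes of this pair differed by -4.01, against 3.65 for Usp12 to Usp46, with Usp44 near the floor.

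**Figure D4:**
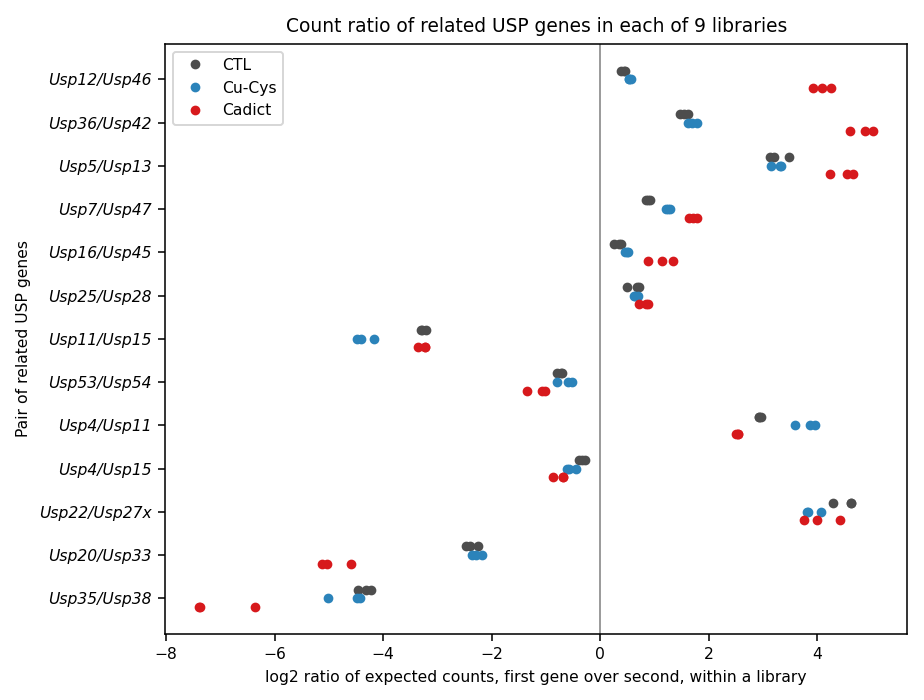
Log2 ratio of expected counts of related USP genes (horizontal axis, first gene over second) in each of the 9 libraries, coloured by group. The Cadict points of Usp12/Usp46 and Usp36/Usp42 lie to the right of the others and those of Usp20/Usp33 and Usp35/Usp38 to the left.

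The plot of scalings and the counts behind it set the Cadict result under 4 settings side by side. The setting on log2(TPM + 1) uses limma and a pseudocount that shrinks the values of low genes, so it differs from the others in more than scaling. The median of all genes was -0.01 with DESeq2 size factors, -0.13 with TMM, -1.08 with library totals and -1.13 on log2(TPM + 1), and that of the members was -0.07, -0.19, -1.14 and -1.23. At fold 2 the members split into 10 higher and 11 lower with DESeq2 size factors, and 1 higher and 25 lower by limma on TPM. On log2(TPM + 1) Usp17la, Usp17lb and Usp12 were the members whose rise kept its sign, at 1.58, 0.68 and 0.22. The falls of the members called lower kept their sign under these 4 settings.

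**Figure D5:**
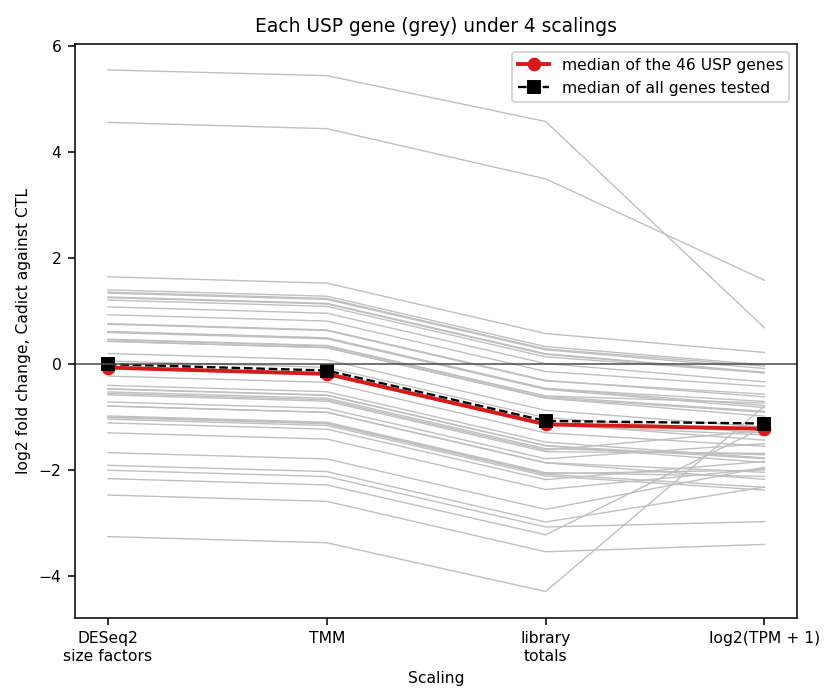
Log2 fold change of each of the 46 USP genes in Cadict against CTL (grey lines) under DESeq2 size factors, TMM, library totals and log2(TPM + 1), with the median of the members (red) and of all genes tested (black). Both medians move together, from near 0 to below -1, and most rises cross 0 on the way.

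Other deubiquitinases and genes of ubiquitin itself were taken as fixed lists beside the members. Of 38 deubiquitinase genes with other symbols, 37 were in the table and 34 tested, and 10 were higher and 6 lower with Cadict at fold 2, with a median log2 fold change of -0.07, where 20.7% of all genes tested were higher and 27.1% lower and their median was -0.13. The counts higher and lower were 2 and 0 of 3 in the UCH family, 2 and 1 of 13 in the OTU family, 1 and 0 of 3 Machado-Joseph enzymes, 1 and 2 of 5 MINDY and ZUFSP genes, 3 and 2 of 7 JAMM metalloproteases, and 1 and 1 of 3 genes of the USP fold with another symbol. Of 5 USP partners 1 was higher and 1 lower. Ubb, a gene of ubiquitin itself, had 809, 843 and 843 TMM CPM in CTL, 812, 852 and 890.1 in Cu-Cys and 9018, 8845 and 8215 in Cadict, a log2 fold change of 3.39 ± 0.06 (SE, adjusted p = 1.7e-16 by edgeR's test). Rps27a, which encodes ubiquitin fused to a ribosomal protein, had a log2 fold change of 1.38 ± 0.12 (SE). Among the other deubiquitinases, the largest rises were those of Uspl1, a SUMO protease of the USP fold, at 2.07 ± 0.06, and Stambpl1, a JAMM enzyme, at 1.97 ± 0.06. The largest falls were those of Mindy4, at -2.44 ± 0.15, and Mysm1, an H2A deubiquitinase of the JAMM type, at -2.09 ± 0.08. With Cu-Cys 1 of the 34 passed fold 2, beside 0.167% of all genes tested higher and 1.47% lower. It was Tnfaip3 (A20, an inhibitor of NF-kappaB), which fell by 1.46 on the log2 scale.

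Features that the choice of members did not use were compared with the Cadict change as a description. Across the 46 members the log2 fold change had a Spearman's rho of 0.12 with transcript length, and across 11535 genes -0.18; genes are not independent replicates and share libraries. The longest coding transcript had a median of 4726 bases in members higher at fold 2, 4586 in members lower and 4776 in those between. Member windows had a median of 65% G and C bases against 52.7% over all, and no motif share, here or above, was adjusted for this. No member window held the heat shock element GAANNTTC or the amino acid response element TGATGNAA. These elements occurred in 7.95% and 4.06% of all windows. The core of the antioxidant response element, TGACNNNGC, was in 10 of 39 windows (25.6%) and in 12.5% of all, with 3 of 7 members higher and 3 of 8 lower holding it. Motifs were searched on both strands, no overlap between different motifs was removed, and no match says only that these letters are not in this window.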

How the data were processed

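RNA of MC38 cells was sequenced in 9 libraries (3 groups of 3). The authors deposited, per gene and library, expected counts, FPKM, TPM and size-factor-scaled counts; the expected counts and the deposited TPM were used here. The submitters' processing notes list HISAT2 2.1.0, Bowtie2 2.3.4.3, RSEM 1.3.1 and the builds GRCm39 and GRCh38.p13; the annotation and strand setting are not given in the sources used here. Columns marked CC were taken as Cu-Cys by initials and CCGE as Cadict, which is inferred from what Cadict is made of. Columns of group averages were not used, and the sources differ on extraction (TRIzol or a column kit), the sequencer and the CTL treatment (DMSO or PBS).

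After rounding, expected counts went into edgeR 4.0.16 (R 4.3.3), with filterByExpr, TMM scaling and 1 quasi-likelihood model of the 3 groups, with Benjamini-Hochberg adjustment over 11949 genes. Thresholds were fold 2 with adjusted p 0.001, and adjusted p 0.05 alone. SE is the log2 fold change divided by the square root of F. The fit was tested on simulated counts. The members, lists and rule for named genes were chosen with earlier results of these data known. By that rule library values are given for the 4 largest rises and 4 largest falls with Cadict, the 3 largest of each with Cu-Cys at 0.05, Usp5, Usp13, Usp14 and the related pairs; of the other lists, the 2 largest rises and falls among deubiquitinases and genes of ubiquitin itself, some of which are not reported here.

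Residuals of libraries with the same replicate number had correlations of -0.192 to 0.152 over 8551 genes, so numbers were not treated as pairs. Replicates differed by more than sampling noise (chi-square per degree of freedom of 1.86 to 21.8). Alternatives were DESeq2 1.42.0 size factors and its Wald test, library totals, at least 10 counts in every library, no filter, a replicate block, limma 3.58.1 on log2(TPM + 1), and each library left out. Overlaps and lengths came from GENCODE transcripts of GRCm38, used by gene name only, and start windows from RefSeq (39 members matched, the first listed start of each).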

Additional observations from a re-analysis of the deposited data

Results flagged for a closer look

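For 5 USP genes both treatments were called against CTL at an adjusted p of at most 0.05 by edgeR, with opposite signs. The direct test of Cadict against Cu-Cys is the test of that difference. The libraries of Usp10, Usp16, Usp33, Usp38 and Usp42 also lay on opposite sides of CTL, but their Cu-Cys changes did not pass 0.05. The libraries of Usp17la lay so too, with 12 or fewer counts in each CTL and Cu-Cys library, and its Cu-Cys change was not called. In the edgeR quasi-likelihood fit the log2 difference of Cadict over Cu-Cys was 1.44 in Usp11, 1.16 in Usp9x, 0.87 in Usp49, 0.87 in Usp2 and -2.32 in Usp46, the last with Cadict lower. Under library totals the values in Usp2 and Usp49 were -0.02 and -0.01, and by limma on log2(TPM + 1) those in Usp2, Usp9x and Usp49 were -0.21, -0.0057 and -0.24. Usp49 shares 51.8% of its 50-base stretches with Gm20517, and Usp9x shares 7.30% of its own with other genes. With 3 libraries a group, no gene's value in a single library was tested for lying apart.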

How the results depend on the processing

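Most sign changes came under library totals or by limma on log2(TPM + 1), which also changes the test and the transform. Under library totals the sign turned with Cadict against CTL in 10 genes, to log2 fold changes of Usp2 -0.61, Usp3 -0.14, Usp7 -0.65, Usp11 -0.47, Usp15 -0.46, Usp24 -0.62, Usp37 -0.31, Usp38 -0.64, Usp39 -0.48 and Usp49 -0.32, and against Cu-Cys in 9, to Usp2 -0.018, Usp3 -0.31, Usp4 -0.72, Usp15 -0.51, Usp24 -0.61, Usp37 -0.27, Usp38 -0.52, Usp39 -0.75 and Usp49 -0.0094. By limma on the deposited TPM it turned against CTL in 17 genes, to Usp2 -0.74, Usp3 -0.43, Usp7 -0.99, Usp9x -0.34, Usp11 -0.71, Usp14 -0.17, Usp15 -0.79, Usp19 -0.16, Usp24 -0.90, Usp31 -0.019, Usp32 -0.087, Usp33 -0.17, Usp36 -0.044, Usp37 -0.62, Usp38 -0.91, Usp39 -0.83 and Usp49 -0.57, and against Cu-Cys in 14, to Usp2 -0.21, Usp3 -0.55, Usp4 -0.96, Usp9x -0.0057, Usp14 -0.15, Usp15 -0.74, Usp19 -0.011, Usp24 -0.84, Usp31 -0.21, Usp36 -0.15, Usp37 -0.51, Usp38 -0.74, Usp39 -1.01 and Usp49 -0.24. Usp14 turned to -0.021 with Cu-Cys against CTL by limma. Library totals lowered the median of all genes by 0.95 in Cadict against CTL.

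The median log2 fold change of the members with Cadict against CTL was -1.14 under library totals, -0.0044 without a filter and -1.23 by limma on TPM. Against Cu-Cys it was -1.03, 0.0076 and -1.07. With Cu-Cys against CTL it was 0.0108 with DESeq2 size factors and by its Wald test, -0.085 under library totals, 0.00 without a filter and -0.13 by limma, and between -0.036 and 0.013 with 1 library left out; the members' median was so near 0 that its sign has no support here. Leaving out 1 library gave medians of -0.27 to -0.12 with Cadict against CTL and -0.24 to -0.05 against Cu-Cys. Members past fold 2 with Cu-Cys numbered 1 under library totals and 0 to 1 with 1 library left out, Usp11 in each case. With Cadict against CTL they numbered 21 to 22, and past 0.05 42 to 44; with Cu-Cys 12 to 22 passed 0.05.

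Of the 44 members called with Cadict against CTL at 0.05, 44 kept their call and direction with no filter and with the replicate block, and 40 with at least 10 counts in every library, which left out Usp17la, Usp17lb, Usp35 and Usp44. With DESeq2 size factors Usp6nl and Usp8 no longer passed 0.05 and Usp28 no longer passed fold 2. The block kept 9 higher and 12 lower at fold 2 and, beside the calls named with Cu-Cys, changed no other call. With Cadict against Cu-Cys, Usp39 (adjusted p = 0.029) passed 0.05 no longer when any of CTL replicates 1 to 3, Cu-Cys replicates 2 and 3 or Cadict replicates 2 and 3 was left out (up to 0.133 by edgeR), nor did Usp4 without Cu-Cys replicate 3 (0.0681). Counts of 3 or fewer in the Usp17-like genes and Usp44 limit their folds.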
